A study of Mus musculus with 9 samples.

Results

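The cytosolic ribosomal protein genes were described in the liver of 3 mouse models that differ in NADPH-cytochrome P450 reductase (Cpr), the enzyme that hands electrons to the microsomal cytochromes P450. Members were the genes whose symbol in the array's annotation is of the Rpl or Rps type with a number, together with Rplp0, Rplp1, Rplp2 and Rpsa, and without the Rps6k kinases. The rule found 48 genes of the 12393 that have a probe set naming a single gene, and the brightest such probe set stood for each gene. Of the 48, 45 were bright enough to be tested, among 8879 genes in all. They comprised 19 proteins of the large subunit, 19 of the small subunit, the stalk proteins Rplp0 and Rplp2, and 5 near copies of ribosomal proteins (paralogs), namely Rpl22l1, Rpl3l, Rpl7l1, Rps27l and Rps4l. Rpl14, Rps25 and Rpl39l were too dim to be tested. A further 27 symbols of the rule, Rplp1 among them, occur only in probe sets that list several genes, so no value is given under their names.

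Livers came from male mice aged 2 months, of mixed C57BL/6 and 129/Sv descent. As their names say, liver-Cpr-null mice have no Cpr in the liver and Cpr-low mice have a reduced amount. Cpr-lox served as the control, and the labels describe its allele no further. Each model was represented by 3 RNA pools drawn from 8 or 9 mice, with an Affymetrix MOE430A array for every pool and 9 arrays in all. The labels leave unstated whether a mouse entered more than 1 pool, so the tests below measure the spread between pools. They also name no promoter for the liver deletion.

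A ribosome is built from ribosomal RNA and a large set of ribosomal proteins, most of them present in a single copy per particle. Their mRNAs are abundant, and most begin with a C followed by a run of pyrimidines, the 5′ terminal oligopyrimidine (TOP) tract, through which the kinase complex mTORC1 and the protein Larp1 control their translation and stability. Hepatocytes, which export plasma proteins in bulk, hold many ribosomes. An array of total liver RNA measures the mRNA level and not ribosome number or translation.

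The start regions of the 9 members that differed between liver-Cpr-null and Cpr-low livers are shown because ribosomal protein mRNAs are known for a pyrimidine run at the start. Each window is the 10 bases before and the 20 bases from the annotated start in RefSeq on GRCm38.p6, written 5′ to 3′ on the gene's strand, and capitals mark the longest C-led run of at least 5 pyrimidines. For a gene with several annotated starts, such as Rps24 with 2, the window of the start with the longest such run was used.
Rps9 (chr7:3704031-3704060, plus strand): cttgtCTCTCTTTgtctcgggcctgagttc
Rps7 (chr12:28635934-28635963, minus strand): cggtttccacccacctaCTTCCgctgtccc
Rps26 (chr10:128626487-128626516, minus strand): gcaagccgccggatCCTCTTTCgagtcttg
Rps24 (chr14:24490668-24490697, plus strand): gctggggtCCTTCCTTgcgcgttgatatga
Rplp2 (chr7:141447641-141447670, plus strand): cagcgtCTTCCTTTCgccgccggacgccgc
Rpl4 (chr9:64173377-64173406, plus strand): tttcctgtgggagcagccgggtagagagga
Rpl6 (chr5:121204491-121204520, plus strand): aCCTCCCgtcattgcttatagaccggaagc
Rpl35 (chr2:39005112-39005141, minus strand): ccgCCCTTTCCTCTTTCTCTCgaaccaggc
Rpl38 (chr11:114668570-114668599, plus strand): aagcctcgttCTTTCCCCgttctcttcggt

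A run of this kind stood in the window of 8 of these 9 members, all but Rpl4. It stood in 19 of 30 members that were tested, had a promoter in the table and did not differ (63.33%). Over all members with a promoter it was found in 29 of 42 (69.05%), against 42.05% of the genes tested on the arrays and 39.59% of all genes of the promoter table. The hexamer CGGAAG, the core of binding motifs of ETS-family transcription factors, was searched on both strands of the 300-base promoter and was present in 29 of 42 members (69.05%), against 32.82% of genes tested on the arrays. Of the 9 members above, 7 had it. In every set, a gene with several annotated starts was counted if any of them had the run or the hexamer. The marked run covered the annotated start base in 5 of the 8, ended before it in Rpl6 and began after it in Rps26 and Rps7. Over the 29 members with a run it covered the start in 12, ended before it in 6 and began after it in 11, so a marked run is not by itself a TOP tract. The annotated starts also need not be the starts used in liver. Rpl7, Rpl8, Rps14, Rps20, Rps29 and Rps4l had no promoter in the table.

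The correlation of log2 signals was 0.984 to 0.995 between pools of the same model and 0.969 to 0.987 between models. Median deposited signals lay between 171 and 179. The run settings in the files give 2 hybridization dates. Cpr-lox pools 1 to 3 and Cpr-low pool 1 were hybridized on the first, and Cpr-low pools 2 and 3 and all liver-Cpr-null pools on the second, so liver-Cpr-null and Cpr-lox share no date. Scan date and the Cpr-lox model cannot be told apart. Signals below were scaled to a common trimmed mean and are linear. Log2 fold changes (± SE) are on the log2(signal + 16) scale from limma, with Benjamini-Hochberg adjustment over all 8879 genes, and a gene was called when its adjusted p was under 0.05.

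By the median member, the ribosomal protein genes were lowest in Cpr-low livers, and the dimmer members, given below, showed little of this. Set against each gene's mean over the 9 arrays, the median member stood at 0.03, 0.07 and 0.06 log2 units in the liver-Cpr-null pools, at -0.08, -0.07 and -0.12 in the Cpr-low pools, and at 0.03, 0.03 and -0.02 in the Cpr-lox pools. The 3 Cpr-low arrays thus lay below the other 6, which overlapped. Members made up 3.10% ± 0.0719 of the summed signal of tested genes in liver-Cpr-null livers, 2.73% ± 0.0485 in Cpr-low livers and 2.98% ± 0.0601 in Cpr-lox livers (SD, n = 3 each). The lowest of the 9 arrays was a Cpr-low array for 36 of the 45 members, a liver-Cpr-null array for 2 and a Cpr-lox array for 7. By pool the 36 were uneven, with 14 for Cpr-low pool 1, 2 for pool 2 and 20 for pool 3. Cpr-low pool 1 was also the highest array for 6 members. The same count was not made over all tested genes. In bulk liver RNA, fewer cells of a type and less RNA per cell cannot be told apart.

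**Figure D1:**
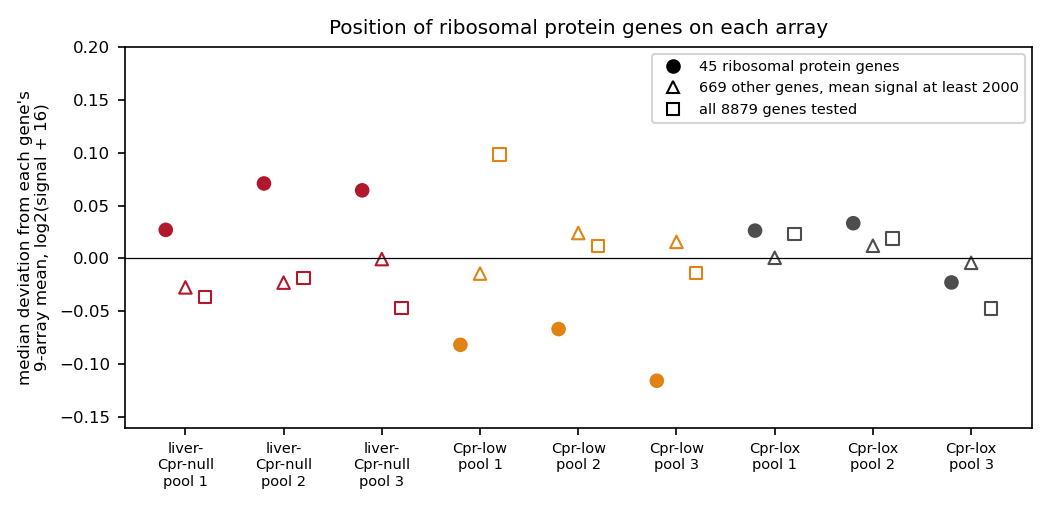
Median deviation of 3 sets of genes from each gene's mean over 9 arrays (y axis, log2(signal + 16) units), for each pool (x axis, grouped by model). Filled circles are the 45 ribosomal protein genes, triangles 669 other genes with a mean signal of at least 2000, and squares all 8879 tested genes. The circles of the 3 Cpr-low pools lie between -0.12 and -0.07, below those of the other 6 pools, while the squares are highest in Cpr-low pool 1, at 0.10.

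The comparison of liver-Cpr-null with Cpr-low livers asked how loss of Cpr in the liver differs from a low level of Cpr. Of the 45 members, 9 rose in liver-Cpr-null livers (20%) and 0 fell, where 8.44% of all tested genes were called, 4.66% higher and 3.77% lower. In limma 20 members had an unadjusted p under 0.05, against 26.1% of all genes. The median member had a log2 fold change of 0.14, against -0.08 over all tested genes, and 40 of 45 members were positive. With arrays scaled to a common median instead, 13 members rose and 0 fell, while 7.4% of all genes were called, 5.91% of all being higher, so the split of all calls depends on the scaling. All 3 liver-Cpr-null arrays lay above all 3 Cpr-low arrays for 20 members (10.8% of all genes), and below them for Rps2 and Rpl3l (25.9% of all genes).

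Brightness bears on these counts, since bright probe sets are called more often. Among the 703 tested genes with a mean signal of at least 2000, a limit chosen after the values were seen, 11.5% were called higher and 12.8% lower in liver-Cpr-null than in Cpr-low livers. All 9 called members were among the 34 members above that limit. The share of these 34 called in either direction was 26.5%, near the 24.3% of all 703 bright genes, and each of the 9 was higher. An unadjusted p under 0.05 in limma was reached by 20 of the 34 and by 310 of the 703. The median over the 34 bright members was 0.19, against -0.03 over the 669 other bright genes. Over the 11 members under the limit it was 0.003, with 7 positive, 4 negative and 0 called. In Cpr-low against Cpr-lox livers the median of these 11 was -0.02, with 5 positive, 6 negative and 0 called.

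Rps9, a small-subunit protein involved in the accuracy of decoding, had signals of 2726, 2815 and 2691 in liver-Cpr-null livers, against 2126, 2000.2 and 1994 in Cpr-low livers. The Cpr-lox livers had 2603, 2714 and 2534. The liver-Cpr-null and Cpr-lox pools overlapped, and every Cpr-low pool lay below them. Its log2 fold change was 0.42 ± 0.07 between liver-Cpr-null and Cpr-low livers (adjusted p = 0.00239), and -0.36 ± 0.07 between Cpr-low and Cpr-lox livers (adjusted p = 0.0079). Both values use the same Cpr-low arrays. In each pair of comparisons below, 1 model's arrays enter both values.

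Rps7, a small-subunit protein that also binds the p53 regulator Mdm2, had 6770.4, 6886 and 6596 in liver-Cpr-null livers, against 5424, 5415 and 5578 in Cpr-low livers. In Cpr-lox livers it had 6298, 7273 and 6428. The Cpr-low pools again lay below all others, and Cpr-lox pool 2 was the highest. The log2 fold change was 0.30 ± 0.07 (adjusted p = 0.0169) between liver-Cpr-null and Cpr-low livers, and -0.28 ± 0.07 (adjusted p = 0.0298) between Cpr-low and Cpr-lox livers.

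Rps26, which contacts the mRNA near the exit of the small subunit, had 8193, 8769 and 7766 in liver-Cpr-null livers, against 6586, 7078 and 6382 in Cpr-low livers. Cpr-lox livers lay between, at 7422, 8069 and 7444, overlapping the liver-Cpr-null pools. It was higher by 0.30 ± 0.07 in liver-Cpr-null than in Cpr-low livers (adjusted p = 0.0194), and its value in Cpr-low against Cpr-lox livers, -0.19 ± 0.07, was not called (adjusted p = 0.152). Rps24, whose human counterpart is mutated in some cases of Diamond-Blackfan anaemia, had 6255, 6684 and 6357 in liver-Cpr-null livers and 5312, 5498 and 5609.6 in Cpr-low livers, groups that do not overlap (0.23 ± 0.06, adjusted p = 0.0422). In Cpr-lox livers Rps24 had 5922, 6177 and 5659.6.

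Among large-subunit proteins, Rpl4, which has an extension lining the peptide exit tunnel, had 11179, 10448 and 10588 in liver-Cpr-null livers, against 8989, 9054 and 8728 in Cpr-low livers (0.27 ± 0.06, adjusted p = 0.0140). Cpr-lox livers had 9979, 10018 and 9399, between the other models in every pool. Rpl6 had 5135, 5683 and 5051 in liver-Cpr-null livers and 4318, 4419 and 4366 in Cpr-low livers (0.27 ± 0.07, adjusted p = 0.0377), with 5332, 5537 and 4853 in Cpr-lox livers. The Cpr-low pools of Rpl6 were tightly grouped below all 6 others, but its value against Cpr-lox was not called (-0.26 ± 0.07, adjusted p = 0.0588).

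Rpl35, which sits beside the exit tunnel, had 5052, 5664 and 5818 in liver-Cpr-null livers and 4749.8, 4598 and 4224 in Cpr-low livers (0.28 ± 0.08, adjusted p = 0.0401). Its Cpr-lox values of 5026, 4885 and 4581 overlapped those of Cpr-low. Rpl38, needed in mouse embryos for translation of a subset of Hox mRNAs, had 9310.3, 9813 and 9908 in liver-Cpr-null livers and 8517, 8413 and 8183 in Cpr-low livers (0.21 ± 0.06, adjusted p = 0.040). For Rpl38 the Cpr-lox pools, at 8607, 8652 and 8579, were close to Cpr-low, and the liver-Cpr-null pools stood above both.

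The stalk of the large subunit, which recruits elongation factors, is formed by Rplp0 as its base and by Rplp1 and Rplp2. Rplp2 had 6744, 7941 and 7357 in liver-Cpr-null livers, against 4938, 6005 and 5649.5 in Cpr-low livers (0.41 ± 0.08, adjusted p = 0.0101). Its Cpr-lox values of 6496, 6861 and 6322 lay above every Cpr-low pool, but the difference was not called (-0.25 ± 0.08, adjusted p = 0.124). Rplp0 had 4927, 4192 and 4076 in liver-Cpr-null livers, 3759.6, 3672 and 3496 in Cpr-low livers and 3588, 3731 and 3767 in Cpr-lox livers. The liver-Cpr-null pools of Rplp0 lay above the other 6, which overlapped. None of its differences was called by limma, with 0.27 ± 0.08 against Cpr-low (adjusted p = 0.0593) and 0.25 ± 0.08 against Cpr-lox (adjusted p = 0.0915).

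**Figure D2:**
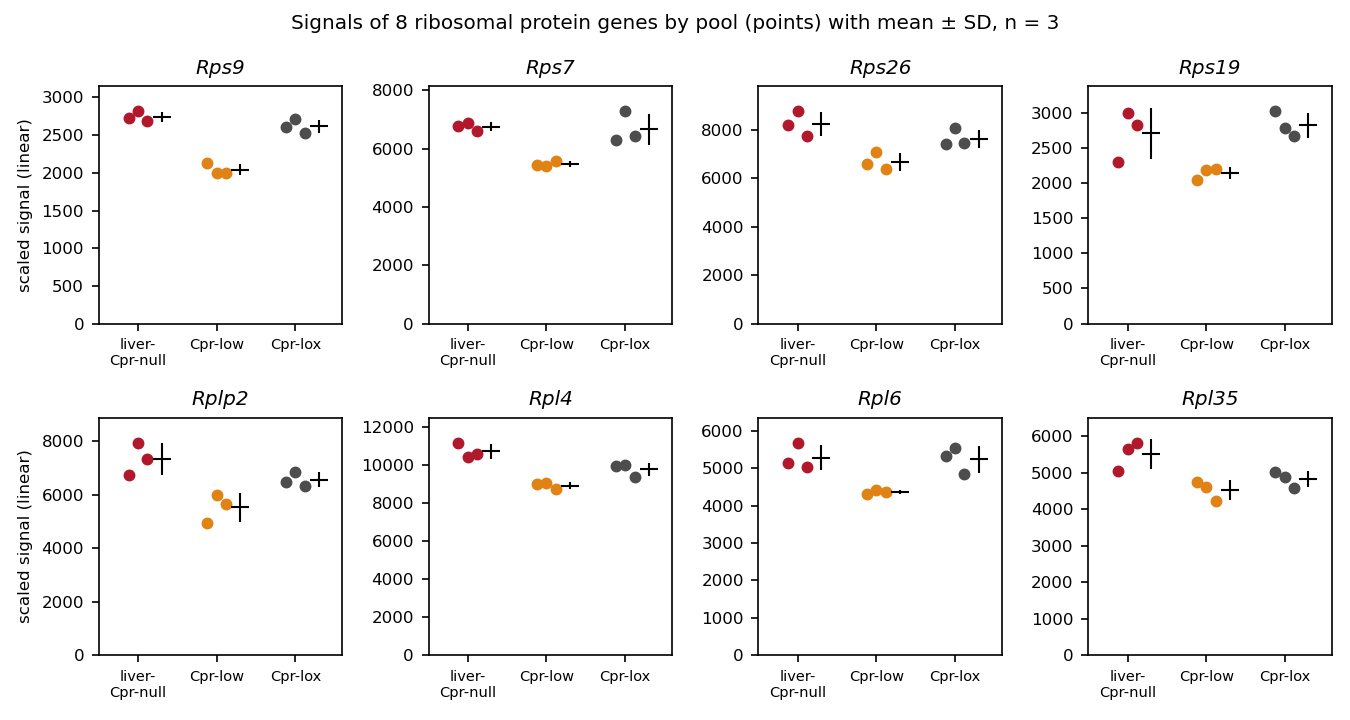
Scaled linear signal (y axis, from 0) of Rps9, Rps7, Rps26, Rps19, Rplp2, Rpl4, Rpl6 and Rpl35 in each pool (points) of the 3 models, liver-Cpr-null at the left and Cpr-lox at the right, with the mean and SD of n = 3 beside them. The Cpr-low pools lie below all liver-Cpr-null pools in each panel, for example 1994 to 2126 against 2691 to 2815 for Rps9.

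How far these calls rest on single pools was tested by leaving each out. The count of 9 became 4 without liver-Cpr-null pool 1, 3 without pool 2, 5 without pool 3, and 4 without Cpr-low pool 2 or without pool 3, each of them higher in liver-Cpr-null livers. In these fits the share of all genes called was 4.51%, 4.57%, 6.14%, 5.21% and 8.94%, so that without Cpr-low pool 3 more genes were called in all and fewer members. Within the second hybridization date, which leaves out Cpr-low pool 1, 3 members were called, namely Rps9, Rps7 and Rpl4, all higher, against 5.32% of all genes, and the median was 0.13. Rps9 kept its call in all 21 alternatives that gave it a value, and Rplp2 and Rpl4 in 21 of 22 each. The other calls were less stable. Of 22 alternatives, Rps7 kept its call in 19, Rps26 in 16, Rpl6 in 13, Rpl35 in 12 and Rps24 in 8. Rpl38 kept its call in 9 of 21. The alternative limited to probe sets not marked as sharing probes gave no value for Rps9 or Rpl38. In that limma fit Rpl35 was not called (0.31 ± 0.10, adjusted p = 0.069).

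The comparison of Cpr-low with Cpr-lox livers asked what a low level of Cpr changed. Of 45 members 0 rose and 4 fell, all of the small subunit (8.89%), where 5.8% of all tested genes were called, 2.31% higher and 3.49% lower, and where, among the 703 bright genes, 10.5% rose and 13.1% fell. In limma 18 members had an unadjusted p under 0.05, against 17.9% of all genes. Brightness bears on this count too: it held for 15 of the 34 bright members and for 337 of the 703 bright genes. The median member was at -0.10, against 0.04 over all genes, and 36 of 45 members were negative. All Cpr-low arrays lay below all Cpr-lox arrays for 21 members (10.7% of all genes) and above them for 1, Rps6 (10.9%).

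Beside Rps9 and Rps7, the members that fell were Rps19 and Rps3a1. Rps19, the protein most often mutated in Diamond-Blackfan anaemia in humans, had 2044, 2194 and 2199 in Cpr-low livers, against 3024, 2792 and 2674 in Cpr-lox livers (-0.40 ± 0.10, adjusted p = 0.0301). In liver-Cpr-null livers Rps19 had 2308, 3001 and 2831, so that pool 1 stood nearer to Cpr-low than to the other pools of its model. The value between liver-Cpr-null and Cpr-low, 0.33 ± 0.10, was not called (adjusted p = 0.0553). Rps3a1 had 5719, 6445 and 6654 in Cpr-low livers, against 7409, 7738 and 7322 in Cpr-lox livers (-0.26 ± 0.07, adjusted p = 0.0461). Its Cpr-low pool 1 was the lowest of the 9 arrays.

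The highest values in Cpr-low against Cpr-lox livers were those of Rps6, Rpl12 and Rps2, none of them called. The probe set of Rps6, the substrate of the S6 kinases, was dim, with 247, 275 and 254 in Cpr-low livers and 206, 202 and 235 in Cpr-lox livers (0.26 ± 0.08, adjusted p = 0.0748). It had 244, 238 and 260.4 in liver-Cpr-null livers, so both models lay above Cpr-lox. Another 9 probe sets list Rps6 among several genes. Rpl12, at the base of the stalk, was dimmer still, with 153, 132 and 137 in Cpr-low livers and 114, 134 and 121 in Cpr-lox livers (0.17 ± 0.08, adjusted p = 0.264). Rps2 had 9993, 8143 and 7918 in Cpr-low livers, against 8075, 7693 and 7230.4 in Cpr-lox livers (0.17 ± 0.08, adjusted p = 0.314), and Cpr-low pool 1 stood above the other 8 arrays. Rps2 had 7805, 7812 and 7712 in liver-Cpr-null livers, below each Cpr-low pool (-0.15 ± 0.08, adjusted p = 0.259).

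The 4 falls in Cpr-low livers rested on few pools. The count was 1 without Cpr-low pool 1 or without pool 2, and 2 without Cpr-low pool 3, without Cpr-lox pool 1 or without Cpr-lox pool 2. The share of all genes called in these fits was 3.09% to 5.27%. On the first hybridization date alone, where Cpr-low pool 1 faces the 3 Cpr-lox pools, limma called 0 members with the lone pool assumed to vary like the others, and 12 had an unadjusted p under 0.05. With the date as a block, the values against Cpr-lox likewise rest on Cpr-low pool 1 alone. In that fit 5 members were called, against 12.2% of all genes: Rplp2, Rps19, Rps28 and Rps3a1 were lower, and Rps2, for which this pool had the highest signal, was higher (0.38 ± 0.08, adjusted p = 0.0175). Rps9 (-0.30 ± 0.09, adjusted p = 0.0521) and Rps7 (-0.29 ± 0.10, adjusted p = 0.0652) were not called there.

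The comparison of liver-Cpr-null with Cpr-lox livers asked what loss of Cpr in the liver changed. Limma called 0 of 45 members, where 7.13% of all tested genes were called, 3.66% higher and 3.47% lower, and 6 members had an unadjusted p under 0.05, against 18.2% of all genes. Among the 703 bright genes 24.0% were called, against 0 of the 34 bright members. The median member was at 0.03, against -0.04 over all genes, with 31 members positive and 14 negative. All liver-Cpr-null arrays lay above all Cpr-lox arrays for 8 members (9.97% of all genes) and below them for 3 (15.6%). The largest positive values were those of Rplp0, Rps6 (0.20 ± 0.08, adjusted p = 0.178) and Rpl35 (0.19 ± 0.08, adjusted p = 0.204). The largest negative were those of Rps4l, Rpl27a and Rps27. Rpl27a had 469, 462 and 638 in liver-Cpr-null livers, 594, 709 and 523 in Cpr-low livers and 722, 441 and 714 in Cpr-lox livers. The models overlapped widely for Rpl27a, and its SE of 0.18 was the highest among members, whose median SE was 0.07.

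A moderated F test over the 3 models called 7 of the 45 members, against 12.1% of all genes. All 7 were among the 34 bright members, and the test called 282 of the 703 bright genes. The standard errors set the smallest change that could be seen. With them, absence of a call for a member does not show that its level was equal in the models.

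**Figure D3:**
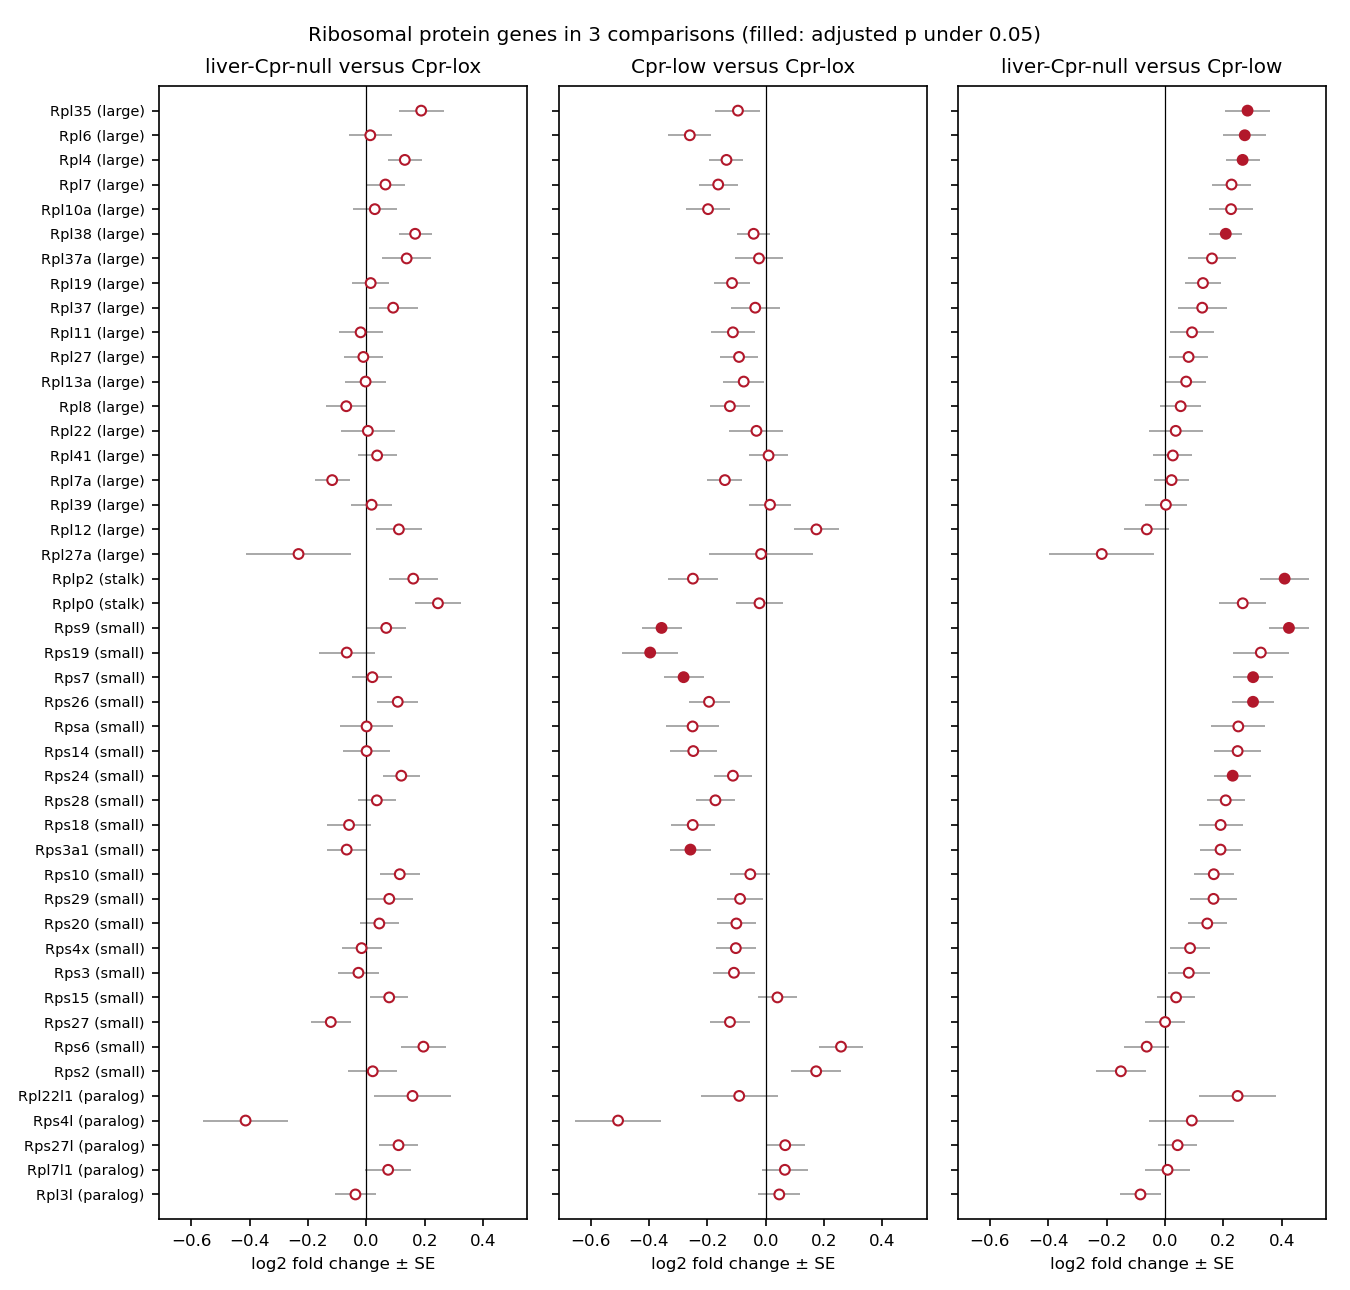
Log2 fold change ± SE of the 45 tested members (rows, with their role) in liver-Cpr-null versus Cpr-lox, Cpr-low versus Cpr-lox and liver-Cpr-null versus Cpr-low livers. Filled points have an adjusted p under 0.05, of which there are 0, 4 (all below 0) and 9 (all above 0).

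Several members with well-studied roles outside or beside the ribosome were not called in any comparison by their brightest probe set. Rpsa, the small-subunit protein also known as the laminin receptor precursor, had 4963, 5530.1 and 4433 in liver-Cpr-null livers, 3964, 4564 and 3979.5 in Cpr-low livers and 4881, 5317 and 4678 in Cpr-lox livers. Its Cpr-low pools lay below the Cpr-lox pools (-0.25 ± 0.09, adjusted p = 0.159). Rpl11, which binds Mdm2 when ribosome assembly fails, had 6524, 6879 and 7612 in liver-Cpr-null livers, 6837, 6841 and 6021 in Cpr-low livers and 6983, 7119 and 7158 in Cpr-lox livers. The models overlapped for Rpl11 except that the Cpr-low pools lay below the Cpr-lox pools (-0.11 ± 0.08, adjusted p = 0.466). Rpl13a, which in human cells can leave the ribosome to silence inflammatory mRNAs, had 4739.7, 4782 and 5161 in liver-Cpr-null livers, 4606, 4977 and 4384 in Cpr-low livers and 4880.5, 4913 and 4903 in Cpr-lox livers, with all models overlapping.

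The paralogs were not called in any comparison. Over the 5 tested, the median in Cpr-low against Cpr-lox livers was 0.05, with 3 positive and 2 negative. Rps4l varied most, with 407, 268 and 310.0 in liver-Cpr-null livers, 286, 314 and 309 in Cpr-low livers and 449, 352 and 525 in Cpr-lox livers. Its values were -0.41 ± 0.15 in liver-Cpr-null against Cpr-lox livers (adjusted p = 0.126) and -0.51 ± 0.15 in Cpr-low against Cpr-lox livers (adjusted p = 0.0659). The Cpr-low and Cpr-lox pools did not overlap, while liver-Cpr-null pool 1 lay within the Cpr-lox range. Its partner Rps4x, on the X chromosome, had 8173, 8294 and 8458 in liver-Cpr-null livers, 8583, 7761 and 7195 in Cpr-low livers and 8437, 8366 and 8402 in Cpr-lox livers, and its values were -0.02 ± 0.07 and -0.10 ± 0.07 in the same comparisons. Whether Rps4l differed from Rps4x in response was not tested.

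Rpl22l1, a paralog of Rpl22 known to be kept low by it, had 1609.7, 1669 and 2077 in liver-Cpr-null livers, 1597, 1270.5 and 1630.1 in Cpr-low livers and 1886, 1441 and 1472 in Cpr-lox livers. The fold changes of Rpl22l1 lay between -0.09 and 0.25 and those of Rpl22 between -0.03 and 0.04. Rps27l, a target of p53, was between 4723 and 4942 in liver-Cpr-null livers, between 4499 and 4791 in Cpr-low livers and between 4235 and 4705 in Cpr-lox livers, with fold changes of at most 0.11. Rps27 had fold changes of -0.12 in both models against Cpr-lox and 0.00 between them. Rpl7l1 (0.07 in both models against Cpr-lox) and Rpl3l, the muscle form of Rpl3 (-0.04 in liver-Cpr-null, 0.05 in Cpr-low), moved within the spread of pools. Rpl7 was higher in all liver-Cpr-null pools, at 6274, 5956 and 6597, than in the Cpr-low pools, at 5257, 5287 and 5511, without a call (0.23 ± 0.07, adjusted p = 0.056). Rpl39 lay between 570.4 and 628 on all 9 arrays.

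Of the probe sets named by the rule for brightness, Rps18 and Rpl7a were, with Rpl4, the brightest. Rps18 had 8425, 9072 and 7913 in Cpr-low livers, against 9901, 10669.5 and 9638 in Cpr-lox livers, which do not overlap (-0.25 ± 0.08, adjusted p = 0.0792), and 8917, 10405 and 9700.2 in liver-Cpr-null livers. Rpl7a was lower in both models than in Cpr-lox livers, by values of -0.12 ± 0.06 in liver-Cpr-null and -0.14 ± 0.06 in Cpr-low that were not called. The dimmest were the untested Rpl39l, Rpl14 and Rps25, whose signals on all arrays lay between 40.8 and 49.2, between 56.9 and 65.3, and between 59.3 and 73.8, under the filter's floor of 128. The annotation lists Rpl14 in another 5 probe sets together with other genes, so a dim signal there does not measure the level of its mRNA.

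Ribosomal protein genes have many processed pseudogenes, and probes can bind more than one transcript. All probe sets were therefore fitted in a second limma model, chosen after the values were seen. Of 100 probe sets of members, 88 were tested, and 19 rose and 0 fell in liver-Cpr-null against Cpr-low livers, where 4.86% of all 13576 tested probe sets rose and 3.43% fell. Of 102 probe sets that list a symbol of the rule among several genes, 90 were tested, and 23 rose and 0 fell in the same comparison, with a median of 0.19. In Cpr-low against Cpr-lox livers 7 probe sets of members fell and 0 rose, and 5 of those with several genes fell and 0 rose, where 3.18% of all probe sets fell and 2.14% rose. In liver-Cpr-null against Cpr-lox livers 0 probe sets of members were called, and of those with several genes 1 rose and 1 fell, against 3.6% and 3.1% of all. Probe sets of a gene share its RNA and may share sequence, so they are not independent.

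In 21 of the 45 members more than 1 probe set was tested, and opposite calls occurred for 0 members in each comparison. In Cpr-low against Cpr-lox livers 5 members had a probe set called lower, 1 of them, Rpl13a, by a dimmer probe set alone. That probe set of Rpl13a, with a mean signal of 272.5, was at -0.46 (adjusted p = 0.0482), and its others were at -0.08 to -0.06. In liver-Cpr-null against Cpr-low livers 14 members had at least 1 probe set called higher, 5 of them by a dimmer probe set alone. Rpl27 was at 0.08 by its brightest probe set and at 0.40 by both others (adjusted p = 0.0223 and 0.0343). Rps18 was at 0.19 and 0.22 by its brightest probe sets and at 0.37 by a dimmer one that was called (adjusted p = 0.012). Rps20 and Rpl41 likewise had a dimmer probe set called, at 0.42 and 0.23, and Rps28 had both dimmer ones called, at 0.24 and 0.40. The dimmest probe sets of Rps18, Rps20 and Rpl35, with mean signals of 250, 218 and 174, were at -0.22, -0.04 and -0.11 without a call. The second probe set of Rps9 was at 0.65 in liver-Cpr-null against Cpr-low livers and at -0.83 in Cpr-low against Cpr-lox livers, both called and both larger than the brightest probe set gave. Among the members called by their brightest probe set, the weakest case was Rps24. Its brightest probe set, of a class with probes that may match other transcripts, was called at 0.23. Its 3 next were at 0.16 to 0.17 without a call, and the dimmest, with a mean signal of 139.9, was at -0.19. The brightest probe sets of Rps9, Rpl35 and Rpl38 were also of such classes, and so was the second of Rps9.

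Other parts of the protein synthesis machinery were set beside the ribosomal proteins, without matching for brightness. To read the list counts, 2.31% of all tested genes rose and 3.49% fell in Cpr-low against Cpr-lox livers. In liver-Cpr-null against Cpr-low livers 4.66% rose and 3.77% fell, and against Cpr-lox 3.66% and 3.47%. Among the 703 bright genes, 10.5% rose and 13.1% fell in the first of these comparisons, and 11.5% and 12.8% in the second. Of 13 other genes known for TOP mRNAs, 0 rose and 4 fell in Cpr-low against Cpr-lox livers, with a median of -0.28, and 4 rose and 0 fell in liver-Cpr-null against Cpr-low livers, with a median of 0.17. Those that did both were Npm1, a nucleolar chaperone (-0.61 ± 0.10, adjusted p = 0.00393, and 0.36 ± 0.10, adjusted p = 0.0495), Pabpc1, which binds poly(A) tails (-0.47 ± 0.09 and 0.43 ± 0.09), and Eif3e, a subunit of initiation factor eIF3 (-0.44 ± 0.10 and 0.45 ± 0.10). Eif4b, a cofactor of the helicase eIF4A, fell in Cpr-low livers (-0.31 ± 0.08, adjusted p = 0.047) and in liver-Cpr-null livers (-0.34 ± 0.08, adjusted p = 0.0286) against Cpr-lox. Eef1b2, an exchange factor of the elongation factor eEF1A, was the only 1 of 6 elongation factors called, at 0.40 ± 0.09 in liver-Cpr-null against Cpr-low livers (adjusted p = 0.0133).

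Of 30 initiation factors, some of them in the TOP list too, 6 fell and 0 rose in Cpr-low against Cpr-lox livers (median -0.19). In liver-Cpr-null against Cpr-low livers 6 rose and 0 fell (median 0.15), and in liver-Cpr-null against Cpr-lox livers 0 rose and 2 fell (median -0.05). Eif3d, another eIF3 subunit, was at -0.42 ± 0.09 in Cpr-low against Cpr-lox livers (adjusted p = 0.0112). Eif1a, which helps select the start codon, and Eif6, which keeps the large subunit from joining too early, were higher in liver-Cpr-null than in Cpr-low livers, at 0.42 ± 0.08 and 0.44 ± 0.10. Eif4h, a helper of eIF4A, fell in both models against Cpr-lox (-0.36 ± 0.07 in liver-Cpr-null and -0.29 ± 0.07 in Cpr-low).

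Of 48 ribosome biogenesis genes 39 were tested, and their medians lay between -0.05 and 0.03. Nhp2, a protein of the complexes that pseudouridylate ribosomal RNA, rose in liver-Cpr-null livers against both others (0.61 ± 0.08 against Cpr-lox, adjusted p = 0.000563, and 0.62 ± 0.08 against Cpr-low). Rcl1, which acts in 18S rRNA processing in yeast, fell in liver-Cpr-null against Cpr-lox livers (-0.49 ± 0.09, adjusted p = 0.00458). Mybbp1a, a nucleolar protein, was lower in Cpr-low than in Cpr-lox livers (-0.43 ± 0.10) and higher in liver-Cpr-null than in Cpr-low livers (0.38 ± 0.10). Of 6 tested RNA polymerase I genes 1 was called, Polr1c, a subunit shared with RNA polymerase III (-0.39 ± 0.08 in Cpr-low against Cpr-lox livers, adjusted p = 0.0148).

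Of 16 tested genes of mTORC1 and TOP control, 0 were called against Cpr-lox in either model, and 2 fell in liver-Cpr-null against Cpr-low livers. These were Pdcd4, an inhibitor of eIF4A (-0.69 ± 0.17, adjusted p = 0.0268), and Eif4ebp2, a repressor of the cap-binding protein eIF4E (-0.32 ± 0.08, adjusted p = 0.0245). Fau, which encodes a small-subunit protein but lies outside the naming rule, had values from -0.09 to -0.04 in the 3 comparisons. Proteins of the mitochondrial ribosome, 73 of them tested, had medians of -0.01, -0.05 and 0.01 in liver-Cpr-null against Cpr-lox, Cpr-low against Cpr-lox and liver-Cpr-null against Cpr-low livers. In the last comparison 2 rose (Mrpl17, 0.37 ± 0.08, and Mrps18b, 0.37 ± 0.09) and 2 fell (Mrpl39, -0.33 ± 0.08, and Mrpl48, -0.27 ± 0.08). Mrpl17 and Mrpl51 fell in Cpr-low against Cpr-lox livers (-0.60 ± 0.08 and -0.29 ± 0.07).

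**Figure D4:**
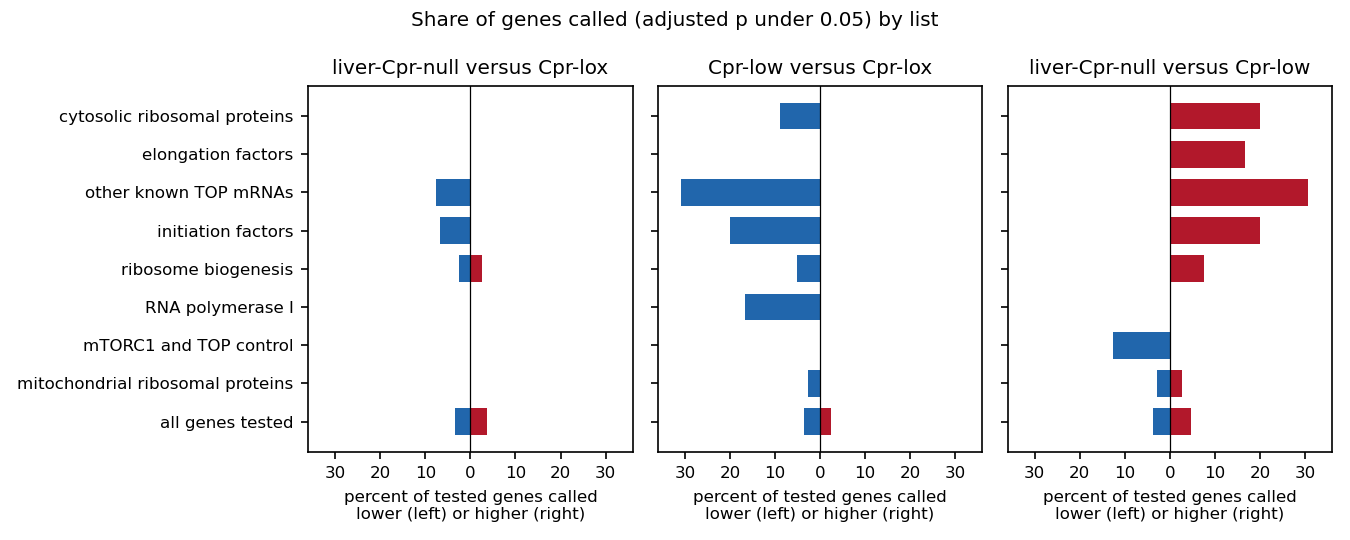
Percent of the tested genes of each list called lower (bars to the left) or higher (bars to the right) at an adjusted p under 0.05, in liver-Cpr-null versus Cpr-lox, Cpr-low versus Cpr-lox and liver-Cpr-null versus Cpr-low livers, with all tested genes in the bottom row. In liver-Cpr-null versus Cpr-low livers 20% of the ribosomal proteins are called higher and none lower, and lists share some genes.

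Markers of other liver cells moved with the models. The summed signal of 15 Kupffer cell markers was 11372 to 14771 in liver-Cpr-null livers, 7817 to 8684 in Cpr-low livers and 8573 to 9046 in Cpr-lox livers, and 9 of 13 tested rose in liver-Cpr-null against Cpr-low livers, 10 of 13 in liver-Cpr-null against Cpr-lox livers and 0 in Cpr-low against Cpr-lox livers. Sums of 15 hepatocyte markers were 216078 to 220598 in liver-Cpr-null livers, 237567 to 246115 in Cpr-low livers and 238368 to 248052 in Cpr-lox livers, with 0 higher and 6 of 15 lower in liver-Cpr-null livers against each other model, and 0 higher and 1 lower in Cpr-low against Cpr-lox livers. Sums of 4 erythroid markers were 1469.5 to 1582 in liver-Cpr-null livers, 1862 to 2129 in Cpr-low livers and 1261 to 1484 in Cpr-lox livers, and Alas2, the erythroid heme synthesis enzyme, rose in Cpr-low against Cpr-lox livers (0.71 ± 0.10, adjusted p = 0.00118), while the other tested marker, Hbb-b2, was at -0.02 ± 0.07 (adjusted p = 0.919). None of 3 tested lymphocyte, 7 neutrophil or 2 cholangiocyte markers was called. Of 7 endothelial markers 1, Clec4g, rose in Cpr-low against Cpr-lox livers, where the median was 0.05. Of 8 stellate markers 1, Col3a1, rose in liver-Cpr-null against Cpr-lox livers, where the median was -0.02 and 3 of 8 were positive. The ratio of the 3′ to the 5′ control probe set of a gene is a sign of RNA integrity and labelling. For Actb it was 1.62 to 1.99 in liver-Cpr-null livers, 1.17 to 1.26 in Cpr-low livers and 1.23 to 1.43 in Cpr-lox livers. For Gapdh it was 2.34 to 2.48 in liver-Cpr-null livers, 2.36 to 2.72 in Cpr-low livers and 2.602 to 2.79 in Cpr-lox livers. The liver-Cpr-null pools thus had the highest ratios by Actb but not by Gapdh. The part of these differences in the values of the ribosomal protein genes was not tested.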

How the data were processed

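Each value is a linear signal intensity that the authors deposited for a probe set of the MOE430A array, in whole numbers, per the file headers. The sources used here do not state the summarisation, background step or scaling, on which values of dim probe sets in particular depend. Trimmed means (2% cut at each end) differed by 10.2% between arrays, so signals were brought to a common one. The log2 of signal + 16 was taken, the upper 60% of probe sets by its mean were kept, and the brightest single-symbol probe set stood for its gene. Tests came from limma 3.58.1 in R 4.3.3, as 1 model over the 9 arrays with eBayes and an intensity trend, two-sided, with Benjamini-Hochberg adjustment over all genes tested. The fit was checked on simulated data. The number of arrays limits the precision. Symbols are those of the platform annotation in GEO, and promoters are from RefSeq on GRCm38.p6. Figures used matplotlib 3.10.9 (Python 3.11.15).

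The members and lists were chosen with earlier results of these data known. Genes were named by rule: called members, the 3 largest values in each direction per comparison, the 3 brightest and dimmest members, the stalk, members with known further roles, paralogs, and up to 4 called genes of each other list. A few further genes were named for their probe sets or list counts after their values were seen. Alternatives were a pseudocount of 1 or 64, other scalings, no filter or the upper 40%, no intensity trend, other probe sets per gene, pool number or date as a block, fits within a date, and each pool left out. The gene encoding Cpr is not reported here.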

Additional observations from a re-analysis of the deposited data

How the results depend on the processing

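The sign of every member median was kept under every alternative run, but its place beside all genes was not. With the date as a block, the median in liver-Cpr-null against Cpr-lox livers was 0.04, below the 0.07 over all genes. With signals as deposited, the median in liver-Cpr-null against Cpr-low livers was 0.21 (14 members called) and in Cpr-low against Cpr-lox livers -0.14. With a common median they were 0.23 and -0.15, and 0.068 in liver-Cpr-null against Cpr-lox livers. With quantile normalization the first was 0.12, and 1 member was called in liver-Cpr-null against Cpr-lox livers. With probe sets lacking a suffix for shared probes (38 members tested), the median in liver-Cpr-null against Cpr-low livers was 0.092, and Rps24, then by its dimmest probe set, was at -0.19 (adjusted p = 0.206). Within the first date 0 members were called in Cpr-low against Cpr-lox livers, and within the second 3 in liver-Cpr-null against Cpr-low livers. Both use fewer arrays, and within the first the median of all genes was 0.11. Leaving out single pools gave 3 to 9 called in liver-Cpr-null against Cpr-low livers (median 0.13 to 0.15), 1 to 5 in Cpr-low against Cpr-lox livers (-0.12 to -0.09) and 0 to 1 in liver-Cpr-null against Cpr-lox livers (0.01 to 0.05). Except where a scaling, probe set or array choice shows its own construction, the cause was not tested.

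Same-numbered pools correlated at -0.21 to 0.47 in their deviations from the model means, and others at -0.43 to 0.26, so the numbers were not taken to pair the pools. With the pool number as a replicate block, 9 members were called in Cpr-low against Cpr-lox livers, all lower, and 13 in liver-Cpr-null against Cpr-low livers, all higher. Members with no call changed sign under 57 of 935, 38 of 893 and 30 of 784 alternative values in liver-Cpr-null against Cpr-lox, Cpr-low against Cpr-lox and liver-Cpr-null against Cpr-low livers.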
